A study of Homo sapiens with 118 samples.

Results

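Trichostatin A C5, the top concentration of 1.5237 µM, was compared with the 3 middle concentrations C2, C3 and C4 in HepaRG cells. The 11 libraries were chosen by compound and dose group, 3 at C5 and 8 at the middle concentrations pooled, out of 118 libraries in the series. C2 was 0.056433 µM, C3 0.1693 µM and C4 0.5079 µM, with 3, 3 and 2 libraries. HepaRG is an established human line from a liver tumour, described in the labels as liver progenitor cells, and here it had been bought cryopreserved in its differentiated state. All groups were exposed for 72 h with the compound renewed daily. Replicates 1, 2 and 3 were HepaRG batches B326, B330 and B303, and C4 had no library of batch B303. Every library was of exposed cells, so the comparison describes the step from the middle to the top concentration and not the response to trichostatin A as a whole. The lowest concentration, C1 (0.018811 µM), was left out by rule because 1 of its 3 libraries departed from the other 2.

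Trichostatin A is a hydroxamic acid made by Streptomyces that binds the zinc in the active site of class I and class II histone deacetylases. These enzymes remove acetyl groups from histone tails, and their inhibition raises histone acetylation and changes the transcription of many genes in either direction. Differentiated HepaRG cultures hold hepatocyte-like cells beside biliary-like cells, and they are used for the cytochrome P450 enzymes and plasma proteins that most hepatoma lines have lost.

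Expression was measured by TempO-Seq, in which pairs of detector oligonucleotides are ligated on their target transcript and the ligated products are counted by sequencing. A feature is 1 such probe, named by gene symbol and probe number, and levels are counts per 1000000 counts (CPM) after scaling by the trimmed mean of M values. Levels of different features were not compared, since probes differ in efficiency. The 11 libraries had 3165079 to 4714273 counts. Of the 7 features of the hepatocyte markers all were detected in all 11, with albumin (ALB) between 16772 and 31298 CPM. The biliary marker EPCAM, the leukocyte genes PTPRC, CD3E and MARCO and both probes of the endothelial gene CDH5 had 0 counts in all 11, which allows up to 3 counts in a library. Other markers of these cell types were detected, with KRT19_10816 at 10.8 to 54.7 CPM and SOX9 at 11.8 to 43.3 among the biliary ones, CD68 at 18.7 to 47.0 and CD14 at 0.768 to 9.88 among the leukocyte ones, and KDR at 4.87 to 18.9 among the endothelial ones. Tested features of the leukocyte and endothelial lists were 2 each, and 0 of them were called at C5.

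The libraries at C5 stood apart from the middle ones, and the 3 of them did so to unequal degrees. Each middle library had a median Pearson correlation of 0.958 to 0.963 with the other middle libraries over the 12325 features tested. The C5 libraries had 0.929 in batch B326, 0.941 in batch B330 and 0.957 in batch B303. The 10 most counted features took 6.19%, 7.02% and 8.13% of the counts of these libraries, against 8.36% to 10.5% in the middle libraries. Batch B303 thus lay nearest to the middle range in both measures.

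More features fell than rose at the top concentration. A feature was called when its edgeR quasi-likelihood test gave a Benjamini-Hochberg adjusted p under 0.05 and it changed by at least 1.5-fold. Of 12325 features 224 fell (1.82%) and 159 rose (1.29%), and the median log2 change over all features was 0.02. With all 3 C1 libraries added to the lower group edgeR called 0 of 12555 features and DESeq2 61, with 1449 at an unadjusted p under 0.05, and with C1 replicates 1 and 2 alone added 210 rose and 258 fell. The change was 2-fold or larger in 81 falling and 46 rising features. All 3 C5 libraries lay below all 8 middle libraries in 168 of the 224 falling features and in 364 of all 12325 (2.95%). They lay above in 56 of the 159 rising features, and in 245 of all features (1.99%).

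**Figure D1:**
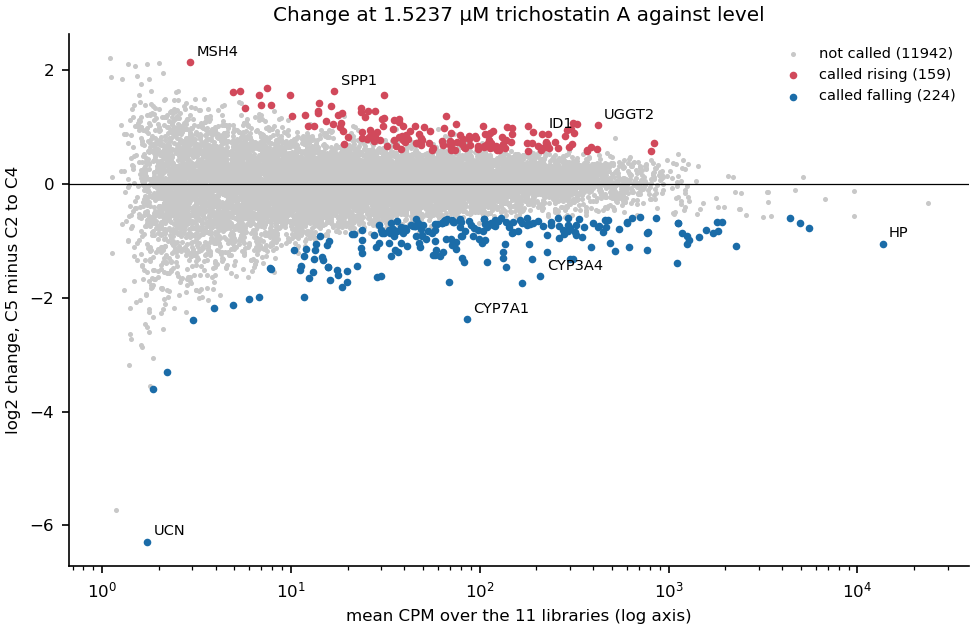
The log2 change between C5 and the pooled C2 to C4 libraries is plotted against the mean CPM over the 11 libraries (log axis), with 1 point a feature. The 224 features called falling (blue) include abundant ones such as HP, and the 159 called rising are drawn in red. The value of UCN is a fitted one that depends on the prior count, as all its C5 counts were 0.

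The falls were seen in all 3 HepaRG batches, and the rises were carried more by batch B326. Within batches, C5 was lower than the middle libraries of the same batch in 3 of 3 batches for 223 of the 224 falling features. Their median log2 difference was -0.96 in batch B326, -1.18 in batch B330 and -0.53 in batch B303. The rising features had the same sign in 3 of 3 batches in 128 of 159 cases, with median log2 differences of 1.37, 0.60 and 0.27. These features were chosen by the same contrast, so the batch values describe the calls and do not test them. Without C5 replicate 1 (batch B326) 52 features rose and 198 fell, and 28 of the 159 and 156 of the 224 were among them. Without C5 replicate 2 there were 196 rising and 139 falling features, and without C5 replicate 3, 474 and 504. Without all libraries of batch B326 there were 26 rising and 135 falling features, without batch B330 10 and 33, and without batch B303 413 and 406. Without batch B330 the features that kept a call included CYP7A1, both CYP3A4 probes, RDH16, ADH4, HP, SCP2_27826, ORM1 and TF among the falling ones, and SPP1, ID1, UGGT2 and ZNF273 among the rising ones. Leaving out C2 replicate 1 or C3 replicate 3 gave 87 and 102 rising features.

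**Figure D2:**
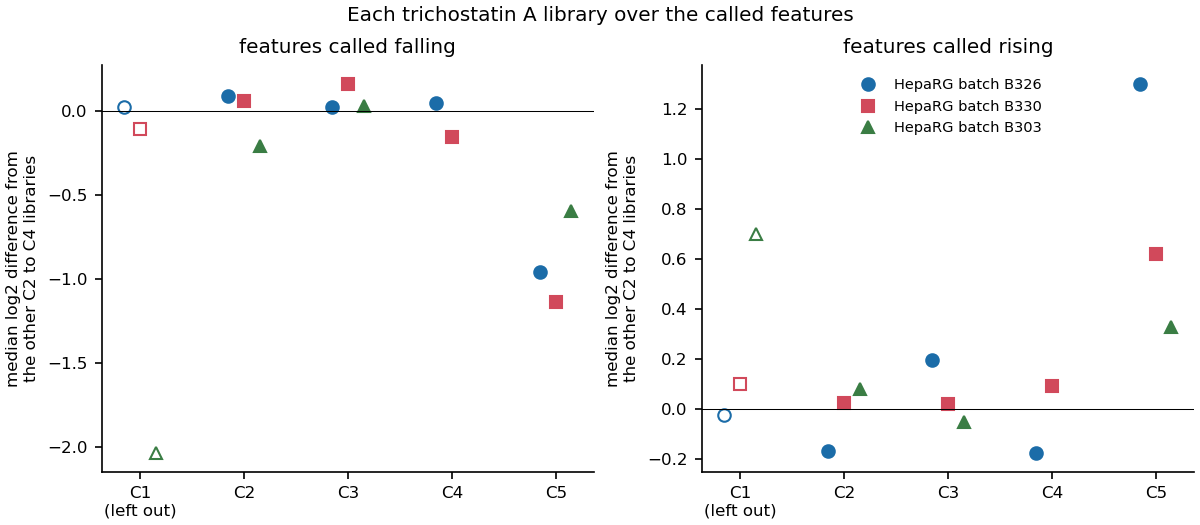
Each point is a trichostatin A library, placed by concentration, with its median log2 difference from the other C2 to C4 libraries over the features called falling (left) or rising (right). The C5 libraries lie at -0.96, -1.13 and -0.60 on the left and at 1.30, 0.62 and 0.33 on the right. Open symbols are the C1 libraries, which were left out of the main comparison. C1 of batch B303 lies at -2.03 and 0.70.

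No difference among the middle concentrations was detected at this depth and number of libraries. The test of any difference among C2, C3 and C4 called 0 of 12761 features (0%) by edgeR and 0 by DESeq2, with 330 features at an unadjusted p under 0.05 and a smallest adjusted p of 1. Against C4 alone, the nearest concentration, 38 features fell (0.298%) and 6 rose (0.047%). Against C3 157 fell (1.23%) and 28 rose (0.219%), and against C2 93 fell (0.729%) and 29 rose (0.227%). These 3 comparisons share the C5 libraries. All 224 falling and all 159 rising features of the pooled comparison had the same sign against each of the 3 concentrations taken alone. Their median log2 changes were -0.81 and 0.88 against C4, -0.93 and 0.78 against C3, and -0.85 and 0.84 against C2. The features were chosen by the pooled contrast of the same libraries, so these signs and medians describe the calls and do not test them.

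The feature with the lowest p was CYP7A1, the rate-limiting enzyme of bile acid synthesis from cholesterol. It had 24.8, 14.0 and 24.6 CPM in the C5 libraries of batches B326, B330 and B303, and 70.7 to 145 (median 113) in the 8 middle libraries. The groups did not overlap, and even the lowest middle library, C4 of batch B330, was well above the C5 libraries. Its log2 change was -2.38 (SE 0.22, edgeR adjusted p = 1.1e-06), and it was also called against C4, C3 and C2 taken singly. The bile acid list held 16 tested features, and CYP7A1 was the 1 called among them (6.25%, beside 1.82% of all features falling). Their median log2 change was -0.68, beside 0.02 over all features, and 15 of 16 were lower at C5. CYP27A1, which starts the alternative route of bile acid synthesis, had a change of -0.47 (SE 0.14, edgeR adjusted p = 0.047), under the fold threshold. BAAT, which conjugates bile acids, had a change of -0.33 (SE 0.12, edgeR adjusted p = 0.138).

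**Figure D3:**
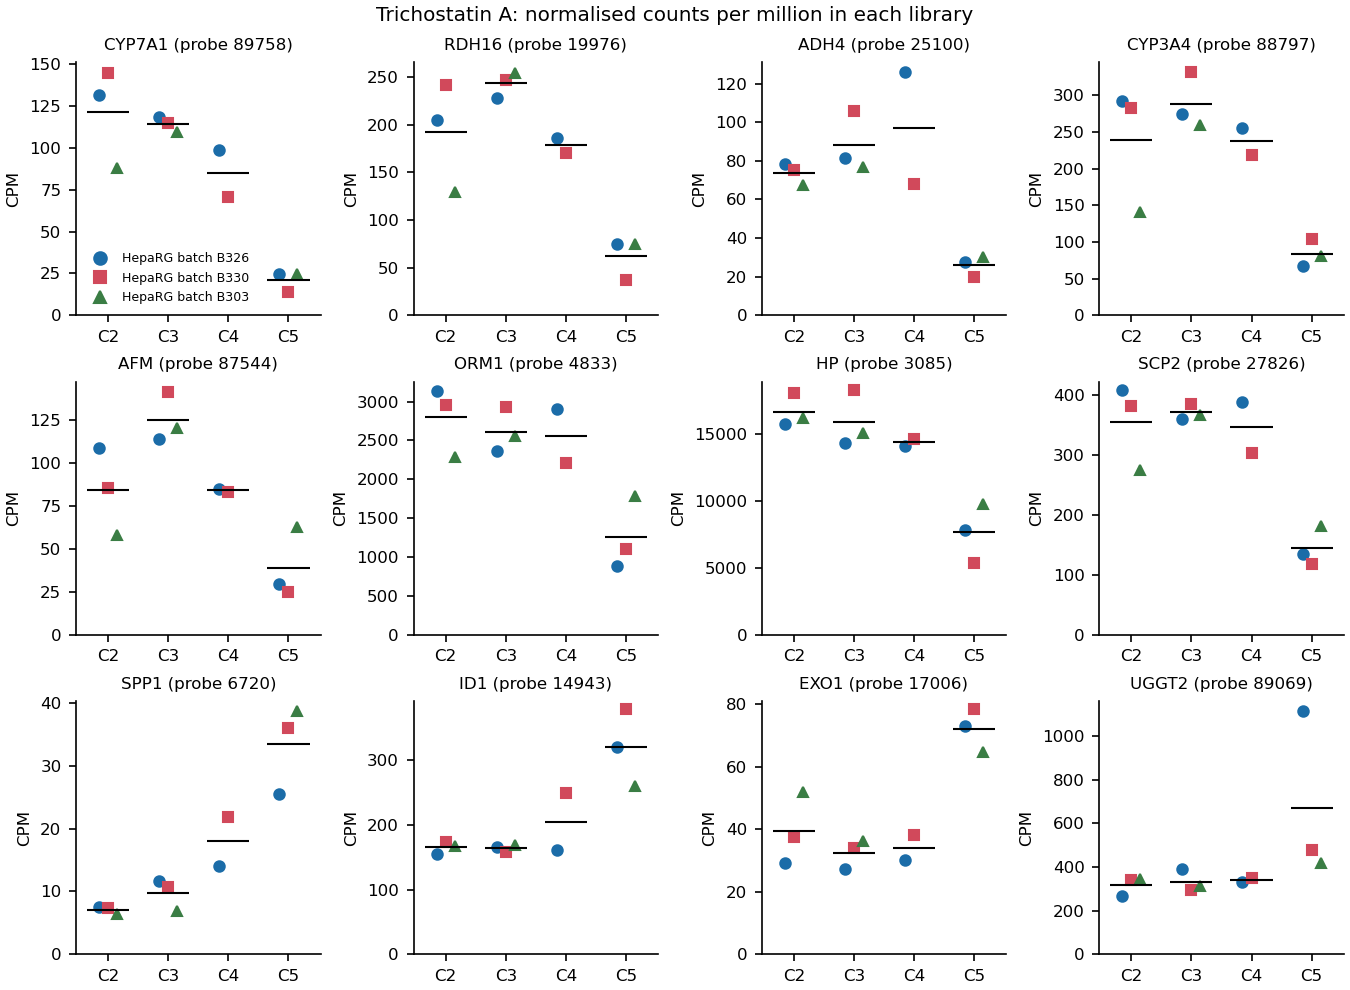
Normalised CPM of 12 features in the 11 libraries by concentration, with symbols for the HepaRG batches and a black line for each group's mean. The first 8 panels show features that fell and the last 4 features that rose at C5. CYP7A1 lies at 14.0 to 24.8 CPM at C5, and UGGT2 is led by the C5 library of batch B326.

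Enzymes that oxidise drugs fell at the top concentration. CYP3A4, the main drug-oxidising P450 of adult liver, had 66.6, 104 and 80.5 CPM at C5 and 140.5 to 332 (median 267) at the middle concentrations with probe CYP3A4_88797. The log2 change was -1.62 (SE 0.19, edgeR adjusted p = 2.2e-05), and the second probe, CYP3A4_90076, fell by 1.45 (SE 0.24, edgeR adjusted p = 0.0008). The groups did not overlap with either probe.

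The list of drug metabolism and transport had 36 tested features, of which 12 fell (33.3%, beside 1.82% of all features) and 0 rose by edgeR. DESeq2 gave the same counts. Its median log2 change was -0.66. Other members that fell included CYP2E1 (-1.32), which oxidises ethanol, CYP3A7 (-1.05), CYP3A5 with 1 of its probes (-0.93) and CYP2C8 (-0.81). The glutathione transferase GSTA1 (-0.60) and both probes of the organic anion transporter SLC22A7 (-1.59 and -0.79) fell too. All of these lost the call without batch B330. GSTA1 and both SLC22A7 probes lost the call without at least 1 single library. The most abundant members that were not called were UGT1A1 (0.07), which conjugates bilirubin, the second CYP3A5 probe (-0.46), and the export pumps ABCC2 (-0.13) and ABCB1 (-0.04).

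Many plasma proteins made by hepatocytes fell, and albumin was not called. Of 25 tested features of this list 13 fell (52%, beside 1.82% of all features) and 0 rose by edgeR. At C5 25 of 25 were lower, with a median log2 change of -0.64. At an unadjusted p under 0.05, 22 were lower and 0 higher. Haptoglobin (HP), which binds free haemoglobin, had 7824, 5355 and 9758 CPM at C5 and 14109 to 18264 (median 15434) at the middle concentrations. No C5 library reached the middle range, and HP fell by 1.05 (SE 0.13, edgeR adjusted p = 2.2e-05). Of the fibrinogen chains, FGG fell by 0.77 (SE 0.12, edgeR adjusted p = 0.000587) and FGB by 0.59 (SE 0.12, edgeR adjusted p = 0.00384), while FGA had a change of -0.57 that stayed under the fold threshold (SE 0.13, edgeR adjusted p = 0.0127). FGB lost its call when any 1 of 6 single libraries was left out. The vitamin E carrier afamin (AFM) fell by 1.36, the hyaluronan-binding ITIH1 by 1.06, prothrombin (F2) by 0.90 and antithrombin (SERPINC1) by 0.84. APOC3 fell by 0.81 and 0.69 with its 2 probes, APOH and hemopexin (HPX) by 0.76 each, transferrin (TF) by 0.69 and complement C3 by 0.64. APOC3_356 and C3 lost the call without C5 replicate 2, and APOH without C5 replicate 1. Without batch B330, FGG, FGB, AFM, SERPINC1, both APOC3 probes, APOH, HPX and C3 lost the call, while HP, ITIH1, F2 and TF kept it. Albumin (ALB) had 16772, 20958 and 21889 CPM at C5 and 19861 to 31298 (median 24464) in the middle libraries, with overlapping groups and a change of -0.33 (SE 0.11, edgeR adjusted p = 0.105). Transthyretin (TTR, -0.26) and SERPINA1 (-0.11), which inhibits neutrophil elastase, were likewise not called. In lysates of whole wells, fewer hepatocyte-like cells and less RNA per cell cannot be told apart.

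Acute-phase proteins of the liver were among the features that fell. In the list of inflammation and the acute phase 5 of 21 tested features fell (23.8%, beside 1.82% of all features) and 0 rose. The list's median log2 change was -0.40. The orosomucoids ORM1 and ORM2 fell by 1.09 and 0.85, the lipopolysaccharide-binding protein LBP by 0.93, and the serum amyloids SAA4 and SAA1 by 1.21 and 0.72. ORM1 had 883, 1105 and 1781 CPM at C5 and 2216 to 3143 (median 2728) in the middle libraries, with no overlap. The chemokines CXCL1 and CXCL2 each changed by -0.55, with edgeR adjusted p-values of 0.00832 and 0.00337 but a fold under 1.5. SAA1 lost the call without C5 replicate 1, and both SAA1 and SAA4 lost it without batch B330.

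In lipid metabolism, the lipid carrier SCP2 was among the features that fell furthest beyond their error. SCP2, which carries sterols and is a peroxisomal thiolase, had 134, 118 and 180.5 CPM at C5 with probe SCP2_27826 and 275 to 407 (median 374) in the middle libraries. It fell by 1.31 (SE 0.15, edgeR adjusted p = 1e-05), whereas its other probe, SCP2_6152, had a change of -0.45 (SE 0.13, edgeR adjusted p = 0.0542). Of 22 features of fatty acid oxidation 5 fell (22.7%), and of 20 of fatty acid synthesis and lipid storage 6 (30%). Of 27 features of cholesterol synthesis and uptake 4 fell (14.8%), beside 1.82% of all features. In each list 0 rose by edgeR and by DESeq2. The median log2 changes of the lists were -0.45, -0.48 and -0.32. Members that fell in the first included the acyl-CoA ligase ACSL1 (-0.83) and the thiolases ACAA2 (-0.88) and ACAA1 (-0.77 and -0.64 with its 2 probes). Those of the second were the triglyceride-forming DGAT2 (-1.20), the lipid droplet proteins CIDEB (-1.17) and PLIN2 (-0.79), the fatty acid carrier FABP1 (-0.97 and -0.73 with its 2 probes) and the fatty acid synthase FASN (-0.64). Those of the third included HMGCS1 (-0.79), INSIG1 (-0.75) and MVD (-0.81). At an unadjusted p under 0.05, 1 feature was higher in the list of fatty acid synthesis, 1 in that of drug metabolism, and 0 in those of fatty acid oxidation, cholesterol, bile acids and the acute phase. Among the members that fell, ACSL1, both ACAA1 probes, PLIN2, FASN, FABP1_11582, INSIG1 and MVD lost the call without at least 1 single library, in each case with the sign kept. All of these, as well as ACAA2 and CIDEB, lost the call without batch B330.

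**Figure D4:**
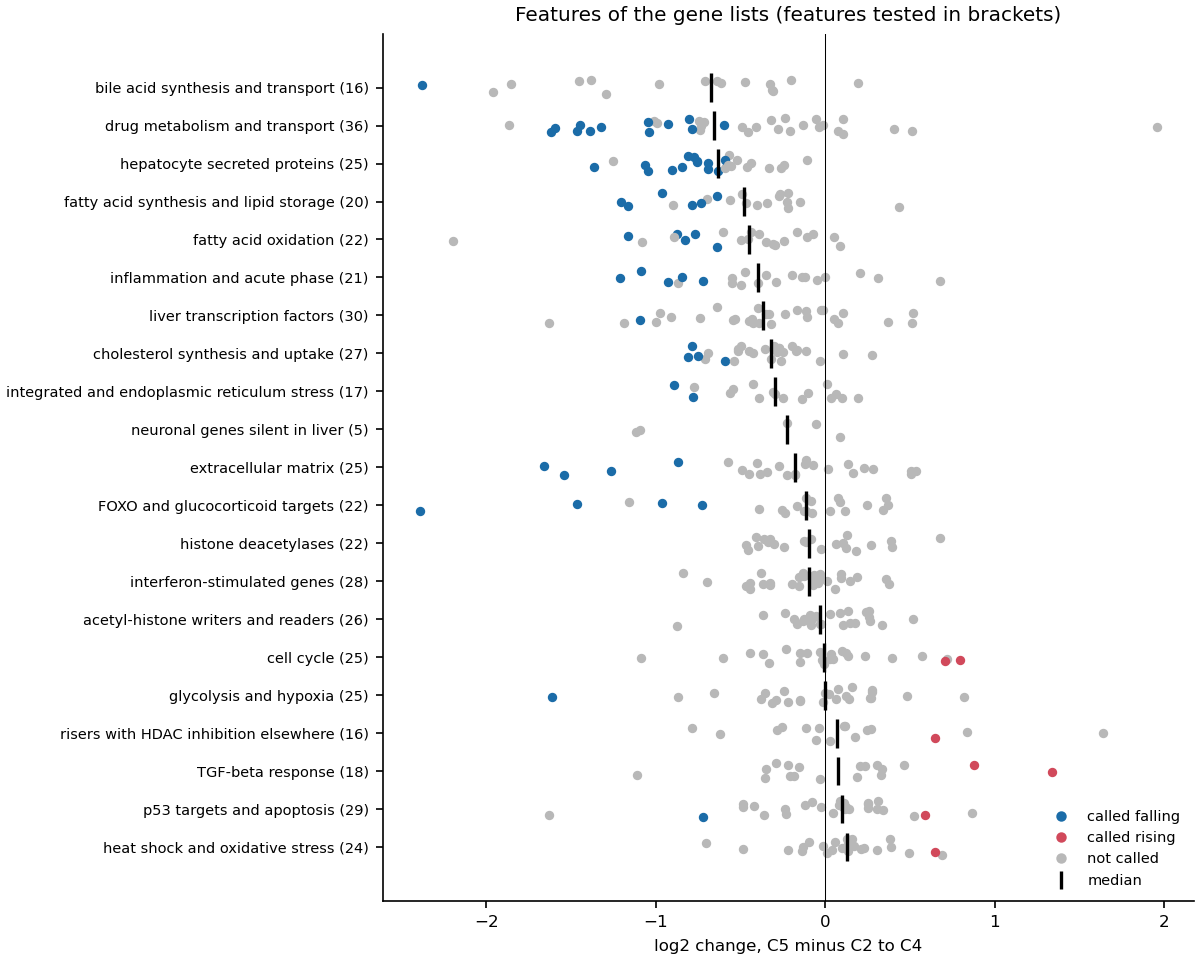
Each point is a tested feature of a gene list, placed by its log2 change between C5 and C2 to C4, with called features coloured and the list's median as a black bar. The lists of bile acid, drug metabolism and secreted protein genes have the lowest medians, between -0.68 and -0.64, and the lists at the bottom have medians near 0.

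Other falling features with a large change included enzymes of liver metabolism. RDH16, a retinol dehydrogenase of liver, had 75.0, 36.6 and 74.8 CPM at C5 and 129.9 to 255 (median 217) at the middle concentrations, and fell by 1.75 (SE 0.21, edgeR adjusted p = 2.2e-05). ADH4, an alcohol dehydrogenase, had 27.7, 19.7 and 30.0 CPM at C5 and 67.7 to 126 (median 77.8) in the middle libraries, and fell by 1.73 (SE 0.21, edgeR adjusted p = 2.2e-05). Neither gene had overlapping groups. At lower levels, HSD17B6 (-1.63), glycerol-3-phosphate dehydrogenase GPD1 (-1.81), complement component C9 (-1.99), the glycine methyltransferase GNMT (-1.99) and the hepcidin regulator TMPRSS6 (-2.13) fell, each with means under 40 CPM in the middle libraries, and each lost the call without batch B330. The second TMPRSS6 and GNMT probes had changes of -0.74 and -2.03 that were not called. SIPA1L3 (-2.02) and the secreted phospholipase PLA2G1B (-2.18) were called too, and both lost the call without C5 replicate 1 or C5 replicate 2, among others for PLA2G1B.

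The largest falls rested on few counts. UCN, which encodes the peptide urocortin, had 0 counts in all 3 C5 libraries and 81 in the 8 middle libraries together. Set against 3 counts over the C5 group, it was at least 9.41-fold lower (edgeR adjusted p = 0.0082). DIPK1B had 1, 0 and 1 counts at C5 and 83 in the middle libraries, a ratio of 14.5 with an exact 95% counting interval of 3.88 to 121. SCML2, a Polycomb group protein, had 1 count in each C5 library and 93 in the middle libraries, a ratio of 10.8 (3.59 to 53.4). IGFBP1 with probe IGFBP1_10877 had 3, 1 and 4 counts at C5 against 129, a ratio of 5.62 (2.77 to 13.3), and its call did not hold with the replicate block (edgeR adjusted p = 0.0523). The other probe, IGFBP1_3266, had a change of 0.08. DIPK1B and SCML2 lost the call without C5 replicate 1 or C5 replicate 2. These intervals cover counting error only.

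FAM111B, EXO1 and DSCC1 were among the 5 rising features with the lowest p. FAM111B, a protease, had 372, 275 and 207 CPM at C5 and 106 to 198 (median 142) at the middle concentrations, and rose by 1.02 (SE 0.16, edgeR adjusted p = 0.000502). EXO1, an exonuclease of mismatch repair, had 73.0, 78.4 and 64.9 CPM against 27.4 to 51.9 (median 35.1) and rose by 1.02 (SE 0.17, edgeR adjusted p = 0.00106). DSCC1, a subunit that helps load the replication clamp, had 206, 175 and 157 CPM against 70.2 to 134 (median 90.4) and rose by 0.93 (SE 0.16, edgeR adjusted p = 0.000889). In all 3 the C5 libraries lay above every middle library, and all 3 lost the call without batch B330, where 2 C5 libraries remained. RAD51B, a recombination protein, rose by 1.13, and the meiotic genes HSF2BP and MSH4 rose by 1.61 and 2.14 at means under 10 CPM. MSH4 had 0.255 to 4.27 CPM (median 0.94) in the middle libraries and passed the filter on low counts with the help of its C5 libraries. It was also called without that filter. HSF2BP's second probe had a change of 0.72 that was not called. RAD51B lost its call without C5 replicate 1, and HSF2BP and MSH4 lost theirs without several single libraries.

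In the list of cell cycle genes 2 of 25 tested features rose (8%, beside 1.29% of all features) and 0 fell, with a median log2 change of -0.01. They were the replicative helicase subunits MCM5 (0.80, SE 0.14, edgeR adjusted p = 0.00162) and MCM3 (0.70, SE 0.14, edgeR adjusted p = 0.00451). The proliferation marker MKI67 had a change of -0.02 and the kinase CDK1 one of 0.10, neither of them called. PCNA (-0.23), the clamp of the replication fork, and RRM2 (-0.03) and TYMS (0.14), which make DNA precursors, were likewise not called. MCM5 and MCM3 lost their calls without batch B330.

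SPP1 and ID1 rose in every C5 library. SPP1, which encodes the secreted protein osteopontin and served here as a biliary marker, had 25.6, 36.1 and 38.7 CPM at C5 and 6.46 to 21.9 (median 9.10) in the middle libraries. The groups did not overlap, although C4 of batch B330 came close, and SPP1 rose by 1.63 (SE 0.29, edgeR adjusted p = 0.00128). It had 7.48, 7.41 and 6.46 CPM at C2, 11.7, 10.7 and 6.90 at C3, and 14.1 and 21.9 at C4, but the test among C2, C3 and C4 gave an edgeR adjusted p of 1. The other biliary features were not called, with KRT19 at 0.00 and 0.24 and SOX9 at -0.12, and the summed CPM of the biliary markers ranged from 61.5 to 137 at C5 and from 64.5 to 105 in the middle libraries. ID1, an inhibitor of basic helix-loop-helix factors, had 320.4, 380.2 and 260.4 CPM at C5 and 155 to 249 (median 167) in the middle libraries, all below C5. It rose by 0.88 (SE 0.14, edgeR adjusted p = 0.000502). ID1 and ID3 (1.34, SE 0.38, edgeR adjusted p = 0.0465) were the 2 of 18 tested features of the TGF-beta list that rose (11.1%, beside 1.29% of all features). In that list 0 fell, and the median was 0.08. ID3 was lost with the replicate block and without several single libraries.

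For other rising features 1 library carried much of the mean. UGGT2, which tags misfolded glycoproteins, had 1117, 478 and 419.6 CPM at C5 and 267 to 392 (median 335) in the middle libraries. It rose by 1.03 (SE 0.18, edgeR adjusted p = 0.00128), but batch B326 was far above the other C5 libraries. The same library was highest for ZNF273, a zinc finger protein, with 103, 48.2 and 29.1 CPM at C5 and 13.9 to 33.0 (median 18.9) in the middle libraries, whose groups overlapped. It was also highest for NRG1 (probe NRG1_27598, 1.09), GNAI3 (1.21), RAD51B, NKAIN2 (1.01) and ZSWIM4 (1.06). UGGT2, NRG1_27598, GNAI3, NKAIN2 and ZSWIM4 lost the call without C5 replicate 1. Of the other NRG1 probes, NRG1_27602 rose by 1.14, whereas NRG1_27601 (0.51) and NRG1_22037 (0.32) were not called. The second GNAI3 probe had a change of 0.32. The monocarboxylate transporter SLC16A12 (1.27) was highest in the same library but kept its call without any single library. It lost the call without batch B330. LRRC49 (1.57) was highest in batch B330, with 12.3, 19.2 and 7.51 CPM at C5. TUBA1A (1.64) and ZNF530 (1.39) were highest in batch B303, with another C5 library close below. They had 7.94, 11.6 and 12.6 CPM and 11.8, 12.3 and 13.8 CPM at C5. LRRC49, TUBA1A and ZNF530 lost the call without C5 replicate 2.

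The enzymes that trichostatin A binds, and the genes that rise with such inhibitors in many cell types, were also compared between C5 and the middle concentrations. Of 22 tested features of histone deacetylases 0 were called by edgeR or DESeq2, with 1 at an unadjusted p under 0.05 and a median log2 change of -0.10. Of 26 features of acetyl-histone writers and readers 0 were called by either tool, again with 1 at an unadjusted p under 0.05. In the list of genes that rise with histone deacetylase inhibition in many cell types, 1 of 16 tested features rose (6.25%, beside 1.29% of all features), the metallothionein MT2A (0.65, SE 0.18, edgeR adjusted p = 0.042), and the median was 0.07. MT2A overlapped between the groups and lost the call under 11 of 22 alternatives. These included leaving out C5 replicate 2, several single middle libraries, batch B330 or batch B303. As the middle libraries were exposed as well, a change already complete at C2 would not appear in this comparison.

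Among stress and signalling genes, the chaperone HSPA5 fell at C5. HSPA5, the main chaperone of the endoplasmic reticulum, had 172, 151 and 276 CPM at C5 and 289 to 489.5 (median 358) at the middle concentrations and fell by 0.89 (SE 0.17, edgeR adjusted p = 0.00247). It and DDIT3 (-0.78) were the 2 of 17 features of the integrated and endoplasmic reticulum stress list that fell (11.8%, beside 1.82% of all features), and 0 rose. In the p53 and apoptosis list 1 of 29 features rose (3.45%, beside 1.29% of all features), the survival factor BCL2L1 (0.59). MDM2 in that list had a change of 0.12. DDIT3 and BCL2L1 each lost the call without several single libraries, and BCL2L1 with the replicate block. MT2A was also the 1 of 24 features called in the heat shock and oxidative stress list (4.17%, beside 1.29% of all features rising). In the list of FOXO and glucocorticoid targets 4 of 22 fell (18.2%, beside 1.82% of all features). They were the glucose-releasing enzyme G6PC (-1.47), the tyrosine aminotransferase TAT (-0.73), the ubiquitin ligase subunit FBXO32 (-0.96) and IGFBP1_10877. The last rests on few counts and lost its call with the replicate block, as given above. FKBP5 had a change of -0.24. TAT lost the call without C5 replicate 2. Without batch B330, HSPA5, G6PC, TAT and FBXO32 lost their calls. The carbonic anhydrase CA9 (-1.61, SE 0.28, edgeR adjusted p = 0.00117) was the 1 of 25 that fell in the list of glycolysis and hypoxia (4%, beside 1.82% of all features). Of 28 interferon-stimulated features 0 were called by edgeR or DESeq2, with 5 at an unadjusted p under 0.05, and of 5 tested neuronal features 0 were called, with 1.

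Liver transcription factors were lower in 24 of 30 tested features, with a median log2 change of -0.37, yet 1 was called (3.33%, beside 1.82% of all features falling). It was CREB3L3 (-1.09, SE 0.27, edgeR adjusted p = 0.0199), which controls fasting and lipid genes and overlapped between the groups. It lost the call without C5 replicate 2. In the extracellular matrix list 4 of 25 fell (16%, beside 1.82% of all features) and 0 rose, with a median of -0.18. They were MMP2 (-1.54), CCDC80 (-0.87) and 2 probes of the proteoglycan decorin, DCN_1779 (-1.66) and DCN_27098 (-1.26). The third decorin probe, DCN_27099, had a change of 0.51 (SE 0.34, edgeR adjusted p = 0.459). MMP2 and DCN_1779 lost the call without C5 replicate 2, and CCDC80 without C5 replicate 1. All 4 lost it without batch B330. Decorin was also a stromal marker. The summed CPM of the stromal markers ranged from 155 to 179 at C5 and from 177 to 247 in the middle libraries, and the other stromal features were not called. The part of these markers in the results was not tested.

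Promoter sequences were available from RefSeq (GRCh38.p14) for 149 of 212 falling symbols, 129 of 158 rising symbols and 8914 of 11110 tested symbols. The 250 bases before the start of each gene were searched on both strands for 8 short motifs. The liver factor HNF4 has sites around CAAAGTCC, which was found for 9 of 149 falling symbols (6.04%), 2 of 129 rising symbols (1.55%) and 124 of all 8914 (1.39%). The overlapping motif GGTCAAAG, another part of such sites, was found for 2 falling (1.34%), 0 rising and 76 of all symbols (0.853%). The C/EBP motif TTGCNNAA was found for 15.4% of falling, 9.30% of rising and 9.19% of all symbols, and the TATA box TATAAA for 18.8%, 10.1% and 8.59%. The HNF1 motif, searched with 1 open base, had 0.671% of falling, 0.775% of rising and 0.415% of all symbols. In the same order, the E2F motif TTTCCCGC had 2.01%, 4.65% and 2.87%. The cyclic AMP element TGACGTCA had 1.34%, 3.1% and 3.22%, and the E-box CACGTG 8.05%, 7.75% and 11.1%. A match is a description of letters and not evidence of binding.

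The stretches of 30 bases around the CAAAGTCC matches of the 9 falling genes are shown because this motif had the largest ratio between falling and all symbols among the 8, a choice made after the counts were seen. They run 5′ to 3′ along the gene's strand, and capitals mark the match, which reads GGACTTTG where it lies on the opposite strand. Beside the members named above, they come from UBD, a ubiquitin-like modifier (log2 change -0.87), the amino acid transporter SLC38A4 (-1.05), the organic anion transporter SLCO2B1 (-0.82), the aminotransferase AGXT2 (-0.71) and HAAO (-0.67) of tryptophan breakdown, and HAAO has 2 matches.
SAA4, chr11:18236842-18236871, minus strand: ttgagcaaaaaGGACTTTGgcaaggcaggt
CIDEB, chr14:24308013-24308042, minus strand: tccctccccttGGACTTTGcccttcttact
SLC38A4, chr12:46826205-46826234, minus strand: cctaagggcagGGACTTTGctctttgtttt
UBD, chr6:29559733-29559762, minus strand: tatataagctgcatgCAAAGTCCtttttct
SLCO2B1, chr11:75159753-75159782, plus strand: gcacaggctgtGGACTTTGccctccacaaa
CYP2C8, chr10:95069532-95069561, minus strand: tatccatgggcCAAAGTCCactcagaaaaa
HMGCS1, chr5:43313210-43313239, minus strand: gacgtaggcgtGGACTTTGcccgggaggat
AGXT2, chr5:35047954-35047983, minus strand: catcttaatctCAAAGTCCagcaggatagt
HAAO, chr2:42792686-42792715, minus strand: cgggctcagacCAAAGTCCaccagggggca
HAAO, chr2:42792669-42792698, minus strand: ccaccagggggCAAAGTCCgcgggccccaa

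Panobinostat and vorinostat, which are hydroxamic acids too, had more features called in the same step, at other concentrations. The remaining compounds of the series were not analysed here. Panobinostat, on the same plate, was taken from C2 to C4 (0.004403 to 0.03963 µM, 8 libraries) to C5 (0.084 µM, 3 libraries). Vorinostat, on another plate, went from C2 to C4 (1.214333 to 10.929 µM, 9 libraries) to C5 (23.5 µM, 3 libraries). Panobinostat's own step called 992 of 13042 features falling (7.61%) and 520 rising (3.99%), and vorinostat's 2692 of 13093 falling (20.6%) and 1646 rising (12.6%). Concentrations were not matched in effect, so a difference between steps belongs to the concentrations used.

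Most of the features that fell with trichostatin A fell with panobinostat and with vorinostat too. Of the 224 features that fell with trichostatin A, 146 also fell in the panobinostat step (65.2% of the 224 and 14.7% of panobinostat's 992). In the vorinostat step 162 fell (72.3%, and 6.02% of 2692). Of all features, 7.61% fell in the panobinostat step and 20.6% in the vorinostat step. Of the 159 that rose, 18 rose with panobinostat (11.3%, and 3.46% of 520) and 20 with vorinostat (12.6%, and 1.22% of 1646). In the opposite direction, 7 of the 159 fell with panobinostat and 46 with vorinostat, beside the 7.61% and 20.6% of all features. The share rising with panobinostat was above the 3.99% of all features in that step, and the share rising with vorinostat equals that of all features, 12.6%. The difference between steps was tested for each feature as an interaction. It was called for 380 of 13042 features between trichostatin A and panobinostat (2.91%) and for 2519 of 13093 between trichostatin A and vorinostat (19.2%). Among the 224 falling features the difference from panobinostat was called in 40, of which 11 fell further with trichostatin A, and the difference from vorinostat in 97, of which 14 did. Among the 159 rising features it was called in 29 and 81, and trichostatin A had the higher change in 27 and 81 of these. Both sets of features were chosen by the trichostatin A step, whose libraries the interaction reuses. These directions therefore describe the calls and do not test them.

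**Figure D5:**
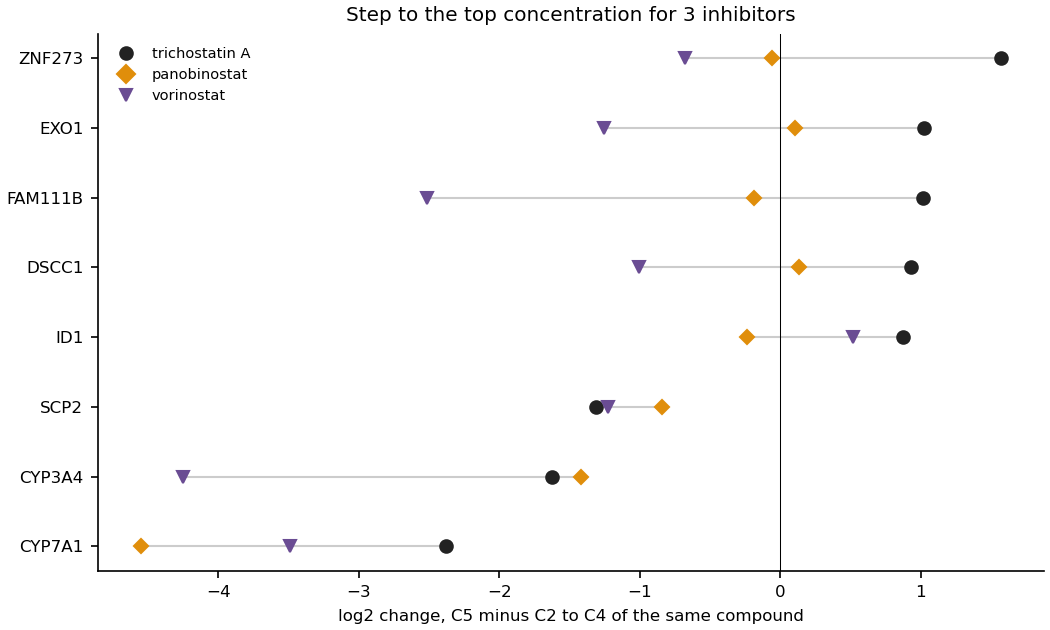
The log2 change from C2 to C4 to C5 of the same compound is plotted for 3 falling and 5 rising features of those with the lowest p in the trichostatin A step. The 3 falling features lie below 0 for the 3 compounds, while EXO1, FAM111B, DSCC1 and ZNF273 lie below 0 for vorinostat.

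The interaction gave a direction for several of these 8 features. They were chosen by their low p in the trichostatin A step, whose libraries the interaction reuses. That choice favours a larger change with trichostatin A. For CYP7A1, which changed by -4.55 and -3.49, the differences of 2.15 (SE 0.94) and 1.11 (SE 1.63) did not pass the test. FAM111B changed by -0.19 with panobinostat and -2.51 with vorinostat, and trichostatin A was higher by 1.18 (SE 0.32, edgeR adjusted p = 0.0366) and 3.53 (SE 0.44, edgeR adjusted p = 4.6e-06). EXO1 and DSCC1 differed from vorinostat by 2.27 (SE 0.41, edgeR adjusted p = 0.000412) and 1.94 (SE 0.29, edgeR adjusted p = 4.5e-05), and from panobinostat by 0.90 and 0.78, which did not pass. ID1 differed from panobinostat by 1.10 (SE 0.20, edgeR adjusted p = 0.00196), and by 0.36 (SE 0.26) from vorinostat, which did not. ZNF273 differed from panobinostat by 1.60 and from vorinostat by 2.25 (edgeR adjusted p = 0.0423 and 0.00248). CYP3A4_88797 and SCP2_27826 passed neither test of the difference, with -0.22 (SE 0.36) and -0.49 (SE 0.33) against panobinostat and 2.63 (SE 1.03) and -0.09 (SE 0.30) against vorinostat.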

How the data were processed

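Whole-transcriptome TempO-Seq libraries of differentiated HepaRG cells exposed to trichostatin A were analysed, with those of panobinostat and vorinostat for 1 comparison. Solvent controls were not analysed here. The table deposited by the authors holds unnormalised whole-number counts of reads, 1 row a probe. The submitters' processing notes name bcl2fastq 2.20.422, fastp 0.23.2, STAR 2.7.10b and DESeq2 1.38.0. The role of each, the probe reference and the genome build are not given in the sources used here. Of 22069 rows 1 lacked values in some libraries and was left out, and it was the last row, so the table may hold a part of the probes. The accompanying paper is about a different experiment and served for style alone.

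Features were filtered with filterByExpr, which left 12325, given TMM scaling factors (trimmed mean of M values) and tested with edgeR 4.0.16 (R 4.3.3), by quasi-likelihood F tests with Benjamini-Hochberg adjustment over all features tested. C5 was set against the 8 middle libraries pooled and against each middle concentration in a fit of 4 groups. The step was set against the same step of panobinostat and of vorinostat as an interaction. A call needed an adjusted p under 0.05 and a fold of at least 1.5. Depth was 3165079 to 4714273 counts a library, so a feature with 3 counts lies near the limit of detection. In simulated data of this design 72.2% of 2-fold and 88.9% of 4-fold changes were recovered in the pooled comparison, and 7.6% of calls were false. Fold bounds used 3 counts over the group, and log2 CPM a prior of 2 counts.

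Named features were the 15 rising and 15 falling calls with the largest change whose C5 libraries lay outside the middle range, the 5 with the lowest p in each direction, and in gene lists the calls with up to 4 of the most abundant others, with further probes where they disagreed. PER3 and the other genes of the closing section were chosen after their values were seen. Some genes that this rule selects are not reported here. Members, lists and tests were chosen with earlier results of these data known. Replicate numbers mark HepaRG batches per the labels, so they pair the samples. Deviations from group means correlated with a median r of 0.04 over 15 pairs of the same batch and -0.02 over 30 pairs of different batches. Alternatives were DESeq2 (1.42.0), relative log expression scaling, no filter, a batch block, other lower groups, and each library or batch left out.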

Additional observations from a re-analysis of the deposited data

Results flagged for a closer look

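In the 8 middle libraries 98 feature and library values were examined for a single library far from the rest, and about 1 in 20 such groups is marked by chance. The C2 library of batch B303 stood apart for 4 features, with 271 CPM for CYP3A5_27090, 89.8 CPM for CYP3A7, 333 CPM for FABP1_11582 and 98.2 CPM for MCM5. The first 3 were its lowest and the last its highest value among the middle libraries. CIDEB had its lowest middle value, 33.2 CPM, in C3 of batch B303, and ID1 had 249 CPM in C4 of batch B330, the highest of the middle libraries.

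The step to the top concentration differed between compounds, by an interaction test at unmatched concentrations. The difference was called for 380 features between trichostatin A and panobinostat and for 2519 between trichostatin A and vorinostat. Among the features with the lowest p, the log2 change was higher with trichostatin A than with panobinostat by 1.10 for ID1, 1.18 for FAM111B and 1.60 for ZNF273. Against vorinostat it was higher by 3.53 for FAM111B, 1.94 for DSCC1, 2.27 for EXO1 and 2.25 for ZNF273. These features were chosen by the trichostatin A step, whose libraries enter the interaction too, which favours a higher change with trichostatin A.

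The C1 library of batch B303, left out of the main comparison, departed from the other libraries of the lowest concentration. Its median correlation with the middle libraries was 0.872, against 0.962 and 0.957 for the other C1 libraries. Over the features that fell at C5 its median log2 difference from the middle libraries was -2.03, against 0.03 and -0.11, and over those that rose it was 0.70. CYP7A1 had 1.72 CPM there, against 104 and 95.1 CPM.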

How the results depend on the processing

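The counts of the 8 comparisons stayed within 1.5 times with relative log expression scaling, with the replicate block and, where tried, without the fold threshold. With the replicate block 156 features rose and 244 fell, and 358 of the 383 calls remained. Paired in this way, BCL2L1, ID3 and IGFBP1_10877 lost their calls among the 95 features followed. Adding all 3 C1 libraries to the lower group gave 0 rising and 0 falling features of 12555 by edgeR, with a smallest adjusted p of 0.0821 and 1449 features at an unadjusted p under 0.05, and 61 by DESeq2. With C1 replicates 1 and 2 alone added, an alternative chosen after seeing the data, 210 rose and 258 fell. DESeq2 called 153 features against C4, 266 against C2 and 618 for the difference from panobinostat. Without a filter on low counts there were 365 calls against C4, 351 against C3, 387 against C2 and 5 among C2, C3 and C4. The cause was not tested. Leaving out a library or a batch gave 10 to 474 rising and 33 to 504 falling features, 0 to 490 calls against C4, 62 to 447 against C3, 36 to 564 against C2, and 195 to 484 for the difference from panobinostat. Without batch B326 there were 26 and 135, without batch B330 there were 10 and 33, and without batch B303 there were 413 and 406 rising and falling features. The 0 was without C4 replicate 1, where 772 features had an unadjusted p under 0.05 and the lone C4 library was assumed to vary like the other groups. Of 72 falling and 23 rising features followed, 42 and 9 kept their call without any single library, and 0 reversed under any alternative tried. Features under about 5 CPM rest on few counts in each library.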

Other observations

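Genes of the circadian clock were not among the lists and were looked up after their values were seen. NPAS2, a partner of the clock protein ARNTL, fell by 1.24 at C5 (SE 0.19, edgeR adjusted p = 0.000502), with mean levels of 28.4 CPM at C5 and 67.4 CPM in the middle libraries. ARNTL itself fell by 1.15 (SE 0.32, edgeR adjusted p = 0.0395) and the repressor NFIL3 by 0.88 (SE 0.23, edgeR adjusted p = 0.0285). PER3, a repressor of the loop, rose by 0.84 (SE 0.19, edgeR adjusted p = 0.0126), from 31.7 to 57.1 CPM. In these 4 features the C5 libraries lay outside the middle range. PER2 had a change of 0.71 and NR1D1 one of -1.56, neither of them called, and CLOCK, CRY1, CRY2 and both PER1 probes had changes between -0.19 and 0.07.

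Some other genes called rising were also named after their values were seen. RAD54L, a recombination protein, rose by 1.43 (SE 0.30, edgeR adjusted p = 0.00685), WDHD1 by 1.28, XRCC2 by 1.02, POLA2, a subunit of the primase complex, by 0.84, the centriole kinase PLK4 by 0.83 and MCM10 by 0.67. The groups overlapped in each of these 6. MCM4, MCM6 and MCM7 had changes of 0.54, 0.63 and 0.12 that were not called.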
